A study of Mus musculus with 16 samples.

Results

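A set of 10 genes that move salt, water and magnesium across colon epithelium was followed in mouse colon mucosa, with and without inflammatory lesions. They were chosen by name: Slc26a3, Slc26a2, Slc9a2, Slc9a3, Aqp4, Aqp8, Scnn1b, Scnn1g, Cftr and Trpm6. Each was taken from its highest-mean row among those carrying the gene symbol, and all 10 had exactly 1 row, out of 30701 genes tested. Male C57BL/6J mice aged 6 weeks started a 10-week diet, either control feed or feed holding 320 ppm of sulindac, an inhibitor of prostaglandin synthesis. RNA of the colon mucosa was then hybridised, 1 array per sample. Wild-type (WT) mice were Mccf/f, with floxed alleles of Mcc, a colorectal cancer gene, and no Cre. Knockout (KO) mice were VILcreMccf/f animals that carried the same floxed alleles and Cre under the villin promoter, which acts in intestinal epithelium and leaves Mcc in other cells. The 4 groups were WT control (n = 6), WT sulindac (n = 3), KO control (n = 3) and KO sulindac (n = 4). Sulindac samples were inflamed areas of proximal colon and are called lesions here, and control samples were normal mucosa from the same place. No array held uninflamed tissue of sulindac-fed mice, so the drug and the choice of inflamed tissue cannot be told apart.

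Surface colonocytes absorb sodium chloride by pairing a sodium-proton exchanger with a chloride-bicarbonate exchanger, and water follows the salt. The epithelial sodium channel takes up further sodium under the control of aldosterone. CFTR lets chloride out of crypt cells and so drives secretion, and TRPM6 is a route for magnesium uptake in the large intestine. Loss of SLC26A3 causes congenital chloride diarrhoea in humans, and loss of TRPM6 causes low blood magnesium. Loss of CFTR causes cystic fibrosis.

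Values are log2 expression after RMA, so a difference of 1 is a doubling of the array signal, and no level of one gene is set against that of another. A gene was called where its limma p, adjusted by Benjamini-Hochberg over all 30701 genes, was under 0.05. Array medians lay between 4.90 and 5.05. Mcc was lower in every KO array (6.39 to 6.71) than in every WT array (7.06 to 7.40), as the labels state. Epcam, an epithelial adhesion protein, lay between 11.93 and 12.22 in all 16 arrays. The labels give no statement that arrays came from separate animals, so p-values measure the spread between these samples. In bulk mucosa, fewer cells of a type and less RNA per cell cannot be told apart.

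Most of the 10 genes were lower in lesions. In WT mice 5 of the 10 fell and none rose: Slc26a3, Slc26a2, Slc9a2, Aqp8 and Trpm6. Over all genes 8.36% were called lower in this response. In KO mice 6 of the 10 fell and none rose: Slc26a3, Slc26a2, Slc9a3, Aqp4, Cftr and Trpm6, against 12.1% of all genes called lower. The median log2 difference of the 10 was -0.82 in WT and -0.90 in KO, beside medians of -0.06 and 0.01 over all genes. The estimate was below 0 for 10 genes in WT and for 9 in KO, where Scnn1g was the exception. The arrays of lesions and controls did not overlap for 7 of the 10 in WT and for 6 in KO, with lesions below controls each time. Over all genes the lesion arrays lay below all controls for 11.6% in WT and 14.4% in KO, and were apart in either direction for 19.7% and 27.1%.

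**Figure D1:**
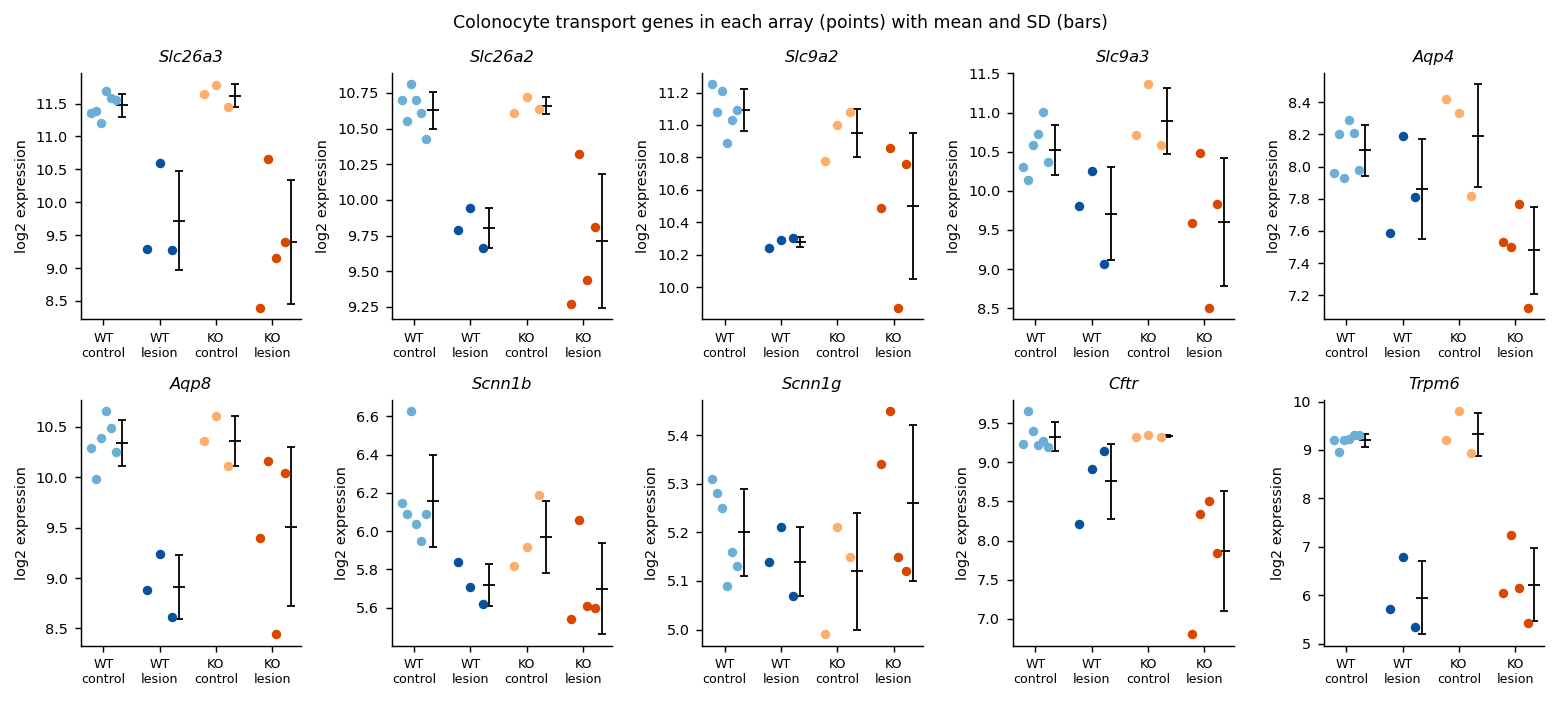
Log2 expression of the 10 transport genes (y axis, a separate range for each gene) in every array of the 4 groups (points), with the group mean and SD beside the points (n = 6, 3, 3 and 4). Trpm6 and Slc26a3 lie lower in all 7 lesion arrays than in all 9 control arrays, while Scnn1g stays between 4.99 and 5.45.

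TRPM6 is a channel fused to a kinase that carries magnesium into epithelial cells, and its gene showed the largest fall of the 10 in each genotype. Trpm6 lay between 8.95 and 9.31 in WT controls, with a median of 9.22. It was 5.71, 6.80 and 5.34 in WT lesions 1 to 3. KO controls had 9.20, 9.81 and 8.94, and KO lesions had 6.05, 7.25, 6.16 and 5.43. The lowest control array lay above the highest lesion array in each genotype. The log2 difference was -3.25 (SE 0.33, limma adjusted p = 9.57e-06) in WT, which is 9.5-fold lower, and -3.09 (SE 0.36, limma adjusted p = 2.05e-05) in KO, which is 8.54-fold lower. All lesion values stayed above the array medians, though RMA compresses differences of dim genes. Trpm7, the related channel-kinase, had log2 differences of -0.17 in WT and -0.45 in KO and passed in neither.

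SLC26A3 exchanges luminal chloride for bicarbonate at the apical membrane and is the main chloride absorber of the colon. Slc26a3 lay between 11.21 and 11.69 in WT controls, with a median of 11.47. WT lesions 1 to 3 had 9.29, 10.59 and 9.28. The KO controls had 11.65, 11.78 and 11.44, and KO lesions 1 to 4 had 8.39, 10.65, 9.16 and 9.40. Replicate 2 was the highest lesion in each genotype and still lay below all controls. The group means in falling order were KO control 11.62 ± 0.17 (SD, n = 3), WT control 11.47 ± 0.18 (SD, n = 6), WT lesions 9.72 ± 0.75 (SD, n = 3) and KO lesions 9.40 ± 0.94 (SD, n = 4). The controls did not differ beyond their spread, and neither did the lesions. The gene fell 3.34-fold in WT (log2 -1.74, SE 0.36, limma adjusted p = 0.0036) and 4.67-fold in KO (log2 -2.22, SE 0.39, limma adjusted p = 6.98e-04).

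SLC26A2 is a sulfate transporter of the same family, and it supplies sulfate for mucins and proteoglycans. Slc26a2 lay between 10.43 and 10.81 in WT controls, with a median of 10.65, and at 9.79, 9.94 and 9.66 in WT lesions. KO controls had 10.61, 10.72 and 10.64, and KO lesions 9.27, 10.32, 9.44 and 9.81. Lesions and controls did not overlap in either genotype, and KO lesion 2 lay nearest to the controls. The falls were close in size, -0.84 (SE 0.17, limma adjusted p = 0.0025) in WT and -0.95 (SE 0.18, limma adjusted p = 0.0012) in KO on the log2 scale. The 95% interval of the difference between these responses ran from -0.63 to 0.41.

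The proximal sequences of the genes with the largest falls in both genotypes, Trpm6 and Slc26a3, are given here with that of Cftr, which passed in KO mice. Each is the 250 bases before the annotated start, written 5′ to 3′ from RefSeq on GRCm38.p6, with motif matches in capitals.

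Trpm6 (chr19:18749480-18749729, + strand): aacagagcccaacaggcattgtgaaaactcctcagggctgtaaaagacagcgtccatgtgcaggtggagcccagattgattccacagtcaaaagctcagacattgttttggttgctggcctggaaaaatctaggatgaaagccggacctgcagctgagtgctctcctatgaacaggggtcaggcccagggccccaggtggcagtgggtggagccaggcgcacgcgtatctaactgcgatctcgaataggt

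Slc26a3 (chr12:31437969-31438218, + strand): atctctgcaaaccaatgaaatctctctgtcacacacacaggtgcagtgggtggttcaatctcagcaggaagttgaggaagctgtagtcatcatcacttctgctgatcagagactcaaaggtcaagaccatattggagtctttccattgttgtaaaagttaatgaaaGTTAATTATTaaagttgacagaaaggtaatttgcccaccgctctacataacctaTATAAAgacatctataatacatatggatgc

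Cftr (chr6:18170437-18170686, + strand): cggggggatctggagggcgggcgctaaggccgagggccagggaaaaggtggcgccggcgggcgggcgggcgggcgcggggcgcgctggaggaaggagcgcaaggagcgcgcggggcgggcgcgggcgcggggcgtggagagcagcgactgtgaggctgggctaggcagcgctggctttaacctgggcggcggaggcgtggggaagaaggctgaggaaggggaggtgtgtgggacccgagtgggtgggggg

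The capitals in the Slc26a3 sequence mark the consensus of HNF1 factors from position -84 and TATAAA, the TATA box, from position -30 relative to the start. Both strands were searched. The HNF1 consensus was present in 1 of the 7 promoters searched for the 10 genes and in 0.371% of all 32851 promoters of that length. Slc26a2 and Aqp4, both on chromosome 18, were left out of the search, and no sequence of Slc9a2 was searched. The background was not limited by chromosome. TATAAA was in the same 1 of 7 and in 12.4% of all. CAAAGTCCA for HNF4, TTTATNG for CDX factors and AGATAA for GATA factors matched none of the 7, against 0.384%, 9.81% and 9.99% of all. Only the 1 form given was searched for each factor, so other forms of a site were not looked for. A CDX match that reads CTATAAA on the other strand would overlap a TATAAA match. No motif matched the Trpm6 and Cftr windows. The G and C content of these windows ran from 38.8% in Slc26a3 through 54.4% in Trpm6 to 76.4% in Cftr. Such matches describe letters in a window and say nothing of factor binding.

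The sodium-proton exchangers NHE2 and NHE3 take up luminal sodium in exchange for protons, and NHE3 is the main absorptive form. Slc9a2, which encodes NHE2, lay between 10.89 and 11.25 in WT controls, with a median of 11.09, and at 10.24, 10.29 and 10.30 in WT lesions. The KO controls had 10.78, 11.00 and 11.08, with KO lesions at 10.49, 10.86, 9.87 and 10.76. The WT groups were far apart and WT lesions were tight, while KO lesion 2 lay within the range of KO controls. Slc9a2 fell 1.76-fold in WT (log2 -0.82, SE 0.16, limma adjusted p = 0.0023). In KO the log2 difference was -0.46 (SE 0.17, limma adjusted p = 0.0746), which missed the threshold. It passed without KO lesion 2 (-0.58, limma adjusted p = 0.0245) and without KO lesion 4 (-0.55, limma adjusted p = 0.0496), and also with arrays centred on their medians (limma adjusted p = 0.0484) or relative to epithelial markers (0.0184). It missed with the number series described below as covariate (-0.63, limma adjusted p = 0.1731) and with a block for the replicate number (-0.47, limma adjusted p = 0.1652). The other fits that left out 1 array missed as well.

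Slc9a3, which encodes NHE3, lay between 10.14 and 11.01 in WT controls, with a median of 10.48. The WT lesions had 9.81, 10.25 and 9.06. KO controls stood at 10.71, 11.36 and 10.58, with KO lesions at 9.59, 10.48, 8.50 and 9.83. WT lesion 2 lay within the control range and the KO groups did not overlap. The gene fell 2.44-fold in KO (log2 -1.29, SE 0.37, limma adjusted p = 0.0216). The log2 difference in WT was -0.82 (SE 0.35, limma adjusted p = 0.1319). The KO call was lost without KO control 2, the highest of its group (-1.05, limma adjusted p = 0.1037), and in a fit of the KO arrays alone (limma adjusted p = 0.0878). The WT value passed in a fit of the WT arrays alone (limma adjusted p = 0.0414).

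AQP8 is a water channel of absorptive colonocytes. Aqp8 lay between 9.98 and 10.66 in WT controls, with a median of 10.34, and at 8.88, 9.24 and 8.61 in WT lesions. KO controls stood at 10.36, 10.61 and 10.11, with KO lesions at 9.40, 10.16, 8.44 and 10.04. All WT lesions lay below all WT controls, but KO lesion 2 lay within the KO control range and KO lesion 4 just under it. Aqp8 fell 2.7-fold in WT (log2 -1.43, SE 0.29, limma adjusted p = 0.0026). The KO difference was -0.85 (SE 0.31, limma adjusted p = 0.0642), which missed the threshold. It passed without KO lesion 2 (-1.07, limma adjusted p = 0.0214) or KO lesion 4 (-1.03, limma adjusted p = 0.0357). It also passed with the replicate block (0.0333), without dim genes (0.0484) or relative to epithelial markers (0.0168). It missed with the number series as covariate (-0.60, limma adjusted p = 0.5921) and in the other fits that left out 1 array.

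AQP4 is a water channel of the basolateral membrane. Its row carried 2 Entrez identifiers under the single symbol Aqp4. Aqp4 lay between 7.93 and 8.29 in WT controls, with a median of 8.09, and at 7.59, 8.19 and 7.81 in WT lesions, which overlapped them. KO controls had 8.42, 8.33 and 7.82, and KO lesions had 7.53, 7.5, 7.77 and 7.12. The KO groups did not overlap, by the narrow gap between KO control 3 and KO lesion 3. Aqp4 fell 1.64-fold in KO (log2 -0.71, SE 0.17, limma adjusted p = 0.0076), a call that was lost without KO control 1 (-0.60, limma adjusted p = 0.0533). The WT difference was -0.23 (SE 0.16, limma adjusted p = 0.3673).

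CFTR is the chloride channel of secretion. Cftr lay between 9.19 and 9.66 in WT controls, with a median of 9.25, and at 8.21, 8.92 and 9.14 in WT lesions. The KO controls were nearly identical at 9.33, 9.35 and 9.33, and KO lesions had 6.80, 8.34, 8.51 and 7.84. Every lesion lay below every control of its genotype, with WT lesion 3 only just below. Cftr fell 2.76-fold in KO (log2 -1.47, SE 0.31, limma adjusted p = 0.0025). In WT the log2 difference was -0.57 (SE 0.28, limma adjusted p = 0.2030).

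The β and γ subunits of the epithelial sodium channel are encoded by Scnn1b and Scnn1g, both on chromosome 7. Scnn1b lay between 5.95 and 6.63 in WT controls, with a median of 6.09, and the WT lesions had 5.84, 5.71 and 5.62. KO controls stood at 5.82, 5.92 and 6.19, with KO lesions at 5.54, 6.06, 5.61 and 5.6. WT lesions lay below all WT controls, and KO lesion 2 lay among the KO controls. The WT difference of -0.43 (SE 0.14, limma adjusted p = 0.0504) missed the threshold, but it lay close to it. It passed without WT control 5 (-0.48, limma adjusted p = 0.0414), with the number series as covariate (0.0245) or random block (0.0443), in WT arrays alone (0.0458), without dim genes (0.0396), with a moderated trend (0.0452) and relative to epithelial markers (0.0426). The same WT difference missed with the replicate block (-0.55, limma adjusted p = 0.0562). Within the lower of the number series it missed too (-0.56, limma adjusted p = 0.0589). Among fits that left out 1 WT array, only that without WT control 5 passed. The KO difference was -0.27 (SE 0.15, limma adjusted p = 0.2533).

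Scnn1g lay close to the array medians in every group, from 5.09 to 5.31 in WT controls, with a median of 5.20, and at 5.14, 5.21 and 5.07 in WT lesions. KO controls had 4.99, 5.21 and 5.15, and KO lesions had 5.34, 5.45, 5.15 and 5.12. KO lesions 1 and 2 lay above all KO controls, and the other KO lesions lay among them. Its log2 differences were -0.06 (95% interval -0.23 to 0.11) in WT and 0.15 (-0.04 to 0.34) in KO. At such a signal a change could be hidden by the compression of RMA. The α subunit gene Scnn1a had means of 9.28 in WT controls and 8.90 in WT lesions. It did not pass in WT (log2 -0.38, limma adjusted p = 0.1217) or in KO (-0.07, limma adjusted p = 0.8360).

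Genotype alone made no called difference among the 10 genes. On the control diet none of them was called, and none of all genes (0%) was called by limma, with 641 genes at an unadjusted p under 0.05, none of them among the 10. Mcc, the deleted gene, was itself not called there (-0.60, SE 0.08, limma adjusted p = 0.0830), although its KO and WT control arrays did not overlap. The lack of calls on the control diet therefore does not show equal levels. Between KO and WT lesions none of the 10 was called, where 0.306% of all genes were. In KO lesions relative to WT lesions, the lowest p among the 10 belonged to Cftr (-0.88, SE 0.31, limma adjusted p = 0.2413). Next came Aqp4 (-0.39, SE 0.17, limma adjusted p = 0.3513) and Aqp8 (0.60, SE 0.31, limma adjusted p = 0.4158). This comparison turned on KO lesion 3. Without it Cftr (-1.10, limma adjusted p = 0.0451), Aqp8 (0.96, limma adjusted p = 0.0191) and Slc9a2 (0.43, limma adjusted p = 0.0372) passed, and calls over all genes went from 94 to 1695. KO lesion 3 had the highest Cftr and the lowest Aqp8 and Slc9a2 of the KO lesions, as well as the lowest mean of the neutrophil markers, 7.15 against 7.80 to 8.48. With a block for the replicate number the comparison of lesions had 2 genes called in all and none of the 10.

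Genes that passed in one genotype and not in the other were not shown to respond differently. The interaction of genotype and sulindac called none of the 10, and 0.00326% of all genes (1 gene, with 3422 at an unadjusted p under 0.05). The lowest p of the 10 was for Cftr, with a KO response minus WT response of -0.89 (95% interval -1.78 to -0.01, limma adjusted p = 0.4473). The intervals also left room for sizeable differences, such as -0.31 to 1.48 for Aqp8 and -1.62 to 0.66 for Slc26a3. For Trpm6 the interval ran from -0.89 to 1.20.

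**Figure D2:**
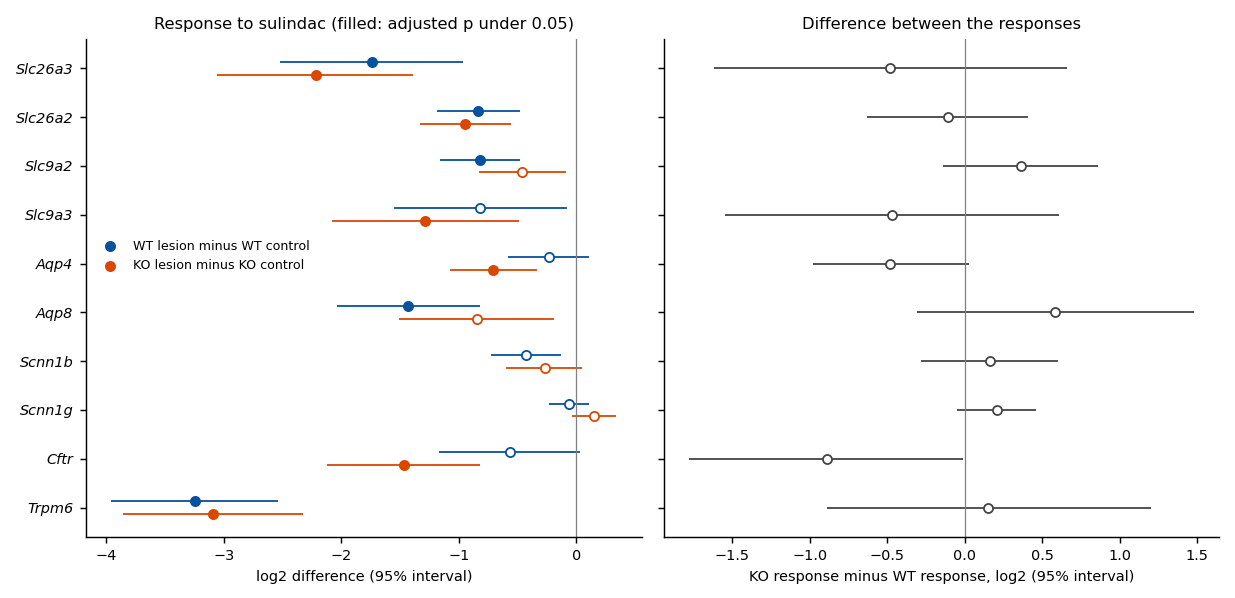
Left, log2 difference of lesions from controls (x axis) for each of the 10 genes (y axis) in WT and KO mice, with 95% intervals. Filled points passed a limma adjusted p of 0.05. Right, the KO response minus the WT response, with 95% intervals; none passed.

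Lesions differed among themselves, and the same arrays kept higher levels of several genes. KO lesion 2 was the highest KO lesion for 8 of the 10 genes, all but Aqp4 and Cftr, and for 4 of them it reached the KO control range. Its median log2 difference from the mean of KO controls over the 10 genes was -0.37, against -0.95 to -1.15 in the other KO lesions. WT lesion 2 was the highest WT lesion for 7 of the 10, with a median of -0.57 against -0.85 and -0.88. KO lesion 1 had the lowest Slc26a3, Slc26a2, Scnn1b and Cftr of its group, and KO lesion 3 the lowest Slc9a2, Slc9a3 and Aqp8. Trpm6 was lower than all controls even in KO lesion 2, by 2.06 from their mean. The means of the 9 neutrophil markers were 7.80, 8.48, 7.15 and 8.43 in KO lesions 1 to 4 and 7.07, 6.91 and 6.43 in WT lesions 1 to 3, and their part in these differences was not tested. Because Slc26a3, Slc9a3 and Aqp8 had SDs of 0.94, 0.82 and 0.79 in KO lesions and of 0.17, 0.42 and 0.25 in KO controls, the pooled spread of the fit is smaller than that of lesions for these genes.

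**Figure D3:**
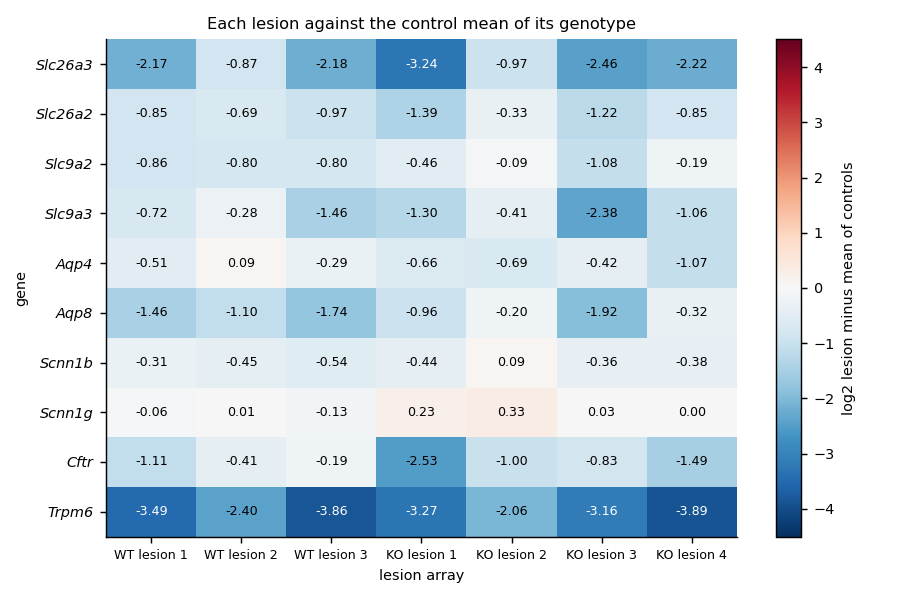
Log2 level of each of the 10 genes (rows) in each lesion array (columns) minus the mean of the controls of its genotype, as numbers and colour. The columns of WT lesion 2 and KO lesion 2 are palest, and the Trpm6 row is dark in all 7 lesions.

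The mean of general epithelial markers was not lower in lesions, although single markers went both ways. The array means of 15 such markers ran from 10.52 to 10.75 in WT controls and 10.66 to 10.78 in WT lesions. For KO they ran from 10.50 to 10.67 among controls and from 10.72 to 10.93 among lesions. In WT 2 of the 15 rose and 2 fell, and in KO 7 rose and 4 fell, with median log2 differences of 0.20 and 0.23. Over all genes 6.98% were called higher and 8.36% lower in WT, so the WT counts are near the background. In KO the shares were 8.98% higher and 12.1% lower. Cldn4, a tight junction protein, rose by 1.42 in WT and 2.57 in KO. Epcam had 0.06 and 0.17 and passed in neither. The markers that fell were Phgr1 (-1.11) and Cdx2 (-0.36) in WT, and Phgr1 (-0.83), Cdx1 (-0.98), Cdx2 (-0.64) and Lgals4 (-0.31) in KO. With each gene expressed relative to the mean of these 15 markers in its array, a setting chosen after seeing the data, 6 of the 10 transport genes fell in WT and 8 in KO. Calls of lower genes were more frequent in general there, at 12% of all genes in WT and 26.5% in KO. The subtracted mean includes Cldn4, the marker with the largest change in both genotypes. No mean without Cldn4 was used, so its share in these calls was not tested. Slc26a3 was then -1.81 and -2.40 and Trpm6 -3.32 and -3.27, as large as before.

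Markers of neutrophils, macrophages and fibroblasts were mostly higher in lesions. Over all genes 6.98% were called higher in WT and 8.98% in KO. Neutrophil markers rose in 6 of 9 cases in WT and 8 of 9 in KO, and their array means went from 4.65 to 4.84 in controls to 6.43 to 7.07 in WT lesions and 7.15 to 8.48 in KO lesions. Monocyte and macrophage markers rose in 9 of 10 in each genotype and fibroblast markers in 6 of 7. None of 8 smooth muscle, 5 enteric glia and neuron or 6 B and plasma cell markers was called in either response. Endothelial markers rose in 1 of 7 in WT and 2 of 7 in KO, and T and NK cell markers in 3 and 4 of 7. The part of these cells in the falls of the transport genes was not tested.

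**Figure D4:**
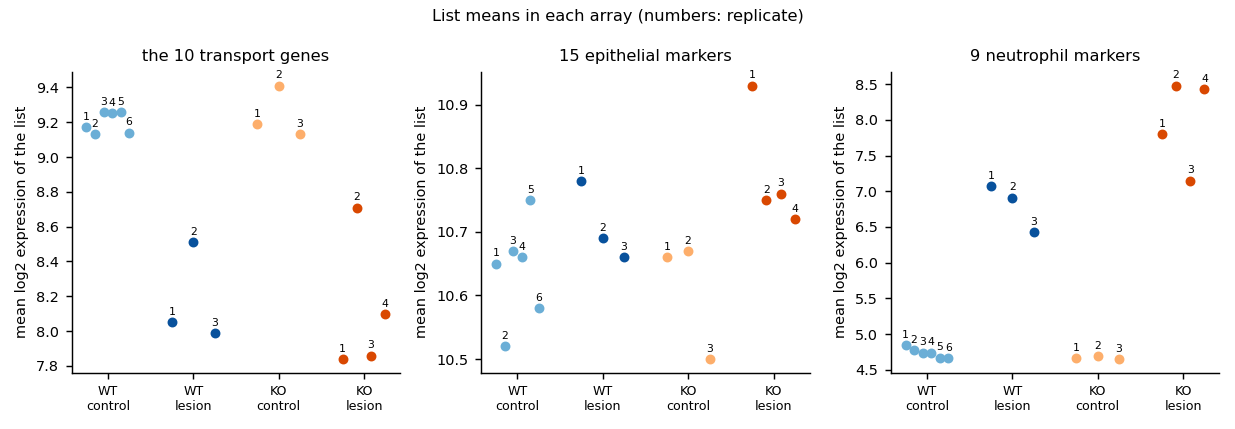
Mean log2 expression per array (y axis) over the 10 transport genes, the 15 epithelial markers and the 9 neutrophil markers in the 4 groups, with replicate numbers at the points. Transport genes are lower in all lesions, epithelial markers lie between 10.50 and 10.93 throughout, and neutrophil markers are higher in all lesions.

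Epithelial transcription factors gave a mixed picture, with 1 of 9 lower in WT and 3 lower and 1 higher in KO. Over all genes 8.36% were called lower in WT, and 12.1% lower and 8.98% higher in KO, so the counts of 1 are near the background. Cdx2, an intestinal identity factor that is also among the epithelial markers, fell by 0.36 in WT and by 0.64 in KO. Hnf4g, a nuclear receptor of enterocytes, was between 8.26 and 8.72 in WT controls and 7.70, 8.24 and 7.79 in WT lesions, a log2 difference of -0.58 that did not pass. It fell by 1.75 in KO, from 8.55, 8.38 and 8.56 to 5.63, 7.25, 7.55 and 6.56. KO lesion 1, the lowest for Hnf4g, was also the lowest for Slc26a3, Slc26a2, Scnn1b and Cftr. KO lesion 3, the highest KO lesion for Hnf4g, was the lowest for Slc9a2, Slc9a3 and Aqp8. Aqp4, Scnn1g and Trpm6 were lowest in KO lesion 4. A link of Hnf4g to these genes was not tested. Hnf4a had -0.11 in WT and -0.22 in KO and passed in neither genotype. Posterior Hox genes, which mark position along the colon, had 1 of 10 lower in each genotype, near the shares over all genes, and median differences of -0.17 and -0.12.

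The wider set of ion and water transport genes was lower in part. Of 60 such genes listed for 8 functions, 57 were measured. In WT 21 fell and 1 rose, with a median log2 difference of -0.33, and in KO 26 fell and 3 rose, with a median of -0.38. The shares over all genes were 8.36% lower and 6.98% higher in WT, and 12.1% lower and 8.98% higher in KO, so counts of 1 among 6 to 8 genes are near the background. Potassium transport genes had 5 of 7 lower in each genotype, with medians of -0.66 and -1.22. Kcne3, a subunit of the basolateral potassium channel that supports chloride secretion, fell 2.42-fold in WT (log2 -1.27, SE 0.35, limma adjusted p = 0.0226) and 4.86-fold in KO (log2 -2.28, SE 0.38, limma adjusted p = 4.71e-04). It was 8.67, 8.62 and 8.78 in WT lesions and 6.53, 8.40, 8.79 and 7.27 in KO lesions, against 9.53 to 10.32 in WT controls and 10.27, 9.74 and 10.08 in KO controls. Kcnma1, the large-conductance potassium channel of colonic potassium secretion, fell by 0.98 in WT and 1.39 in KO.

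The list of 1 sodium channel subunit, Scnn1a, and 7 regulators had 4 of 8 lower in each genotype, all of them regulators. Besides Sgk1 these were Nedd4l (-0.52), Prss8 (-0.44) and Nr3c2 (-0.62) in WT. In KO they were Nedd4l (-0.47), Nr3c2 (-0.81) and Hsd11b2 (-1.25). The joint effect of these falls on the channel was not tested. Sgk1, the aldosterone-induced kinase that keeps the channel at the membrane, lay between 7.73 and 8.42 in WT controls and at 6.49, 6.69 and 6.56 in WT lesions. KO controls stood at 7.87, 8.18 and 7.75 and KO lesions at 6.71, 7.35, 6.39 and 6.85, with no overlap. Sgk1 fell 3.0-fold in WT (log2 -1.59, SE 0.18, limma adjusted p = 2.15e-05) and 2.15-fold in KO (log2 -1.10, SE 0.19, limma adjusted p = 6.14e-04).

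Of 6 genes of guanylin and cyclic nucleotide control of secretion, 3 fell in WT and 5 in KO. Adcy6, an adenylate cyclase, and Vipr1, a receptor for vasoactive intestinal peptide, belong to the cyclic AMP side and fell in both genotypes. On the guanylin side, which raises cyclic GMP, only Guca2a of 4 passed in WT, and Guca2a, the receptor gene Gucy2c (-0.84) and the kinase gene Prkg2 (-0.94) fell in KO. Guca2b, encoding uroguanylin, had -0.24 and -0.40 and passed in neither. Guca2a, encoding guanylin itself, fell 3.0-fold in WT (log2 -1.59, SE 0.22) and 3.17-fold in KO (log2 -1.67, SE 0.24), with limma adjusted p of 1.34e-04 and 1.08e-04. In the group of chloride, bicarbonate and sulfate genes 3 of 12 fell and 1 rose in WT, and 4 fell and 2 rose in KO. Clca1, a secreted goblet cell protein, fell by 1.56 and 1.10. Its relative Clca4b, expressed in colonocytes, went the other way, from 11.19 to 11.39 in WT controls to 12.54, 12.78 and 12.37 in WT lesions, and from 11.28, 11.35 and 10.98 to 13.05, 12.62, 12.57 and 12.73 in KO. It rose 2.36-fold in WT (log2 1.24, SE 0.11, limma adjusted p = 2.64e-06) and 2.91-fold in KO (log2 1.54, SE 0.12, limma adjusted p = 4.40e-07). Clca4a, a near relative that may share probe signal with it, rose by 0.56 in KO and had 0.22 in WT.

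Among the other aquaporins 2 of 6 fell in each genotype and 1 rose in KO. Aqp1, a water channel found in endothelium and in some epithelia, fell by 1.46 (SE 0.16) in WT and by 1.31 (SE 0.17) in KO, with limma adjusted p of 1.45e-05 and 4.76e-05. Aqp9, a channel of leukocytes and liver, rose by 0.47 in KO, from 4.51, 4.54 and 4.5 to 5.03, 5.26, 4.81 and 4.84, around the array medians. Sodium pump genes had 2 of 4 lower in each genotype, with medians of -0.20 and -0.15. Sodium-proton exchange genes and their scaffolds had 1 of 6 lower in WT and 3 in KO, and magnesium and calcium transport genes 1 of 8 in each. Over all genes 8.36% were called lower in WT, and 12.1% lower and 8.98% higher in KO. The counts of 1 in these lists are near that background.

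**Figure D5:**
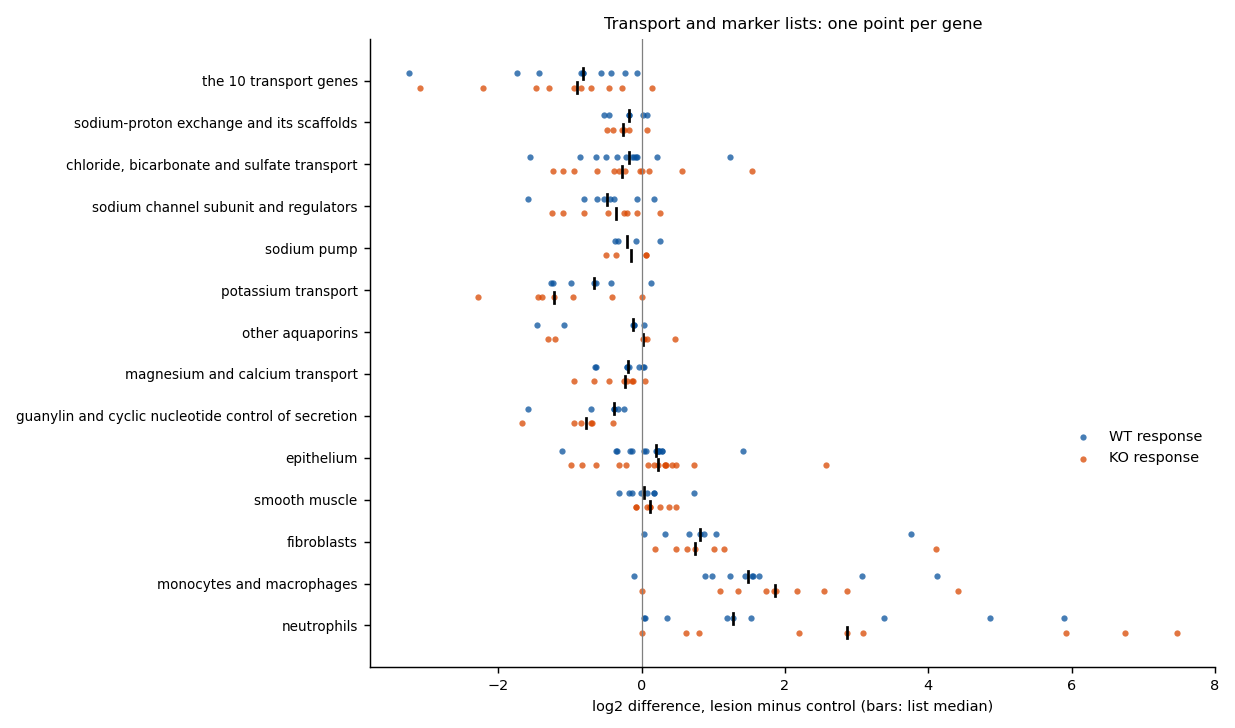
Log2 difference of lesions from controls (x axis) for every measured gene of the transport lists and of 5 marker lists (y axis), 1 point per gene, with WT and KO responses in separate colours and list medians as bars. The 10 transport genes lie mostly left of 0, epithelial markers lie around 0, and neutrophil and macrophage markers lie to the right.

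The genes whose pattern over the 16 arrays was most like each transport gene were ranked by Pearson r as a description, since control and lesion arrays form separate clusters that set most of its size. For Slc26a3 they were Acer1 (0.984), an alkaline ceramidase, and Abat (0.981), the enzyme that breaks down GABA. For Slc26a2 they were Selenbp1 (0.981), a selenium-binding protein, and Hsd3b3 (0.980), a hydroxysteroid dehydrogenase. Trpm6 ran with Scin (0.981), an actin-severing protein, and Osbpl6 (0.978), an oxysterol-binding protein. Cftr ran with Tfdp2 (0.989), a partner of E2F factors, and Tlk1 (0.974), a kinase. Slc9a2 was nearest to Txnip (0.958), a thioredoxin-binding protein, and Abcb1a (0.949), a drug efflux pump. Slc9a3 was nearest to Slc13a2 (0.924), a citrate transporter, and Clic5 (0.911), a brush border protein. Aqp8 was nearest to Synpo (0.946), an actin-binding protein, and Cyp4f37 (0.944), a cytochrome P450. Aqp4 was nearest to Mir327 (0.904) and Hottip (0.896), a non-coding RNA of the Hoxa locus. Scnn1b was nearest to Cyp4b1-ps1 (0.949) and Cyp4b1 (0.934), a pseudogene and gene pair that may share probes, and Scnn1g to Abcb4 (0.812) and Castor2 (0.809).

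Numbers in the sample descriptions form a lower and a higher series whose meaning the labels do not give. KO controls hold the higher series alone and all lesions the lower, so the KO response and the series are confounded, and only WT controls, with 3 arrays in each, link them. With the series as a covariate 3.66% of all genes were called lower in KO, and 3 of the 10 fell: Trpm6 (-2.94, limma adjusted p = 0.0037), Slc26a2 (-1.05, limma adjusted p = 0.0249) and Cftr (-1.67, limma adjusted p = 0.0359). Slc26a3 had -1.92 (limma adjusted p = 0.0594), Slc9a3 -0.94 (limma adjusted p = 0.4301) and Aqp4 -0.58 (limma adjusted p = 0.2343). Within the lower series 4.55% of all genes were called lower in WT, and 3 of the 10 fell: Trpm6 (-3.17, limma adjusted p = 0.0019), Slc9a2 (-0.90, limma adjusted p = 0.0217) and Slc26a2 (-0.89, limma adjusted p = 0.0327). There Slc26a3 had -1.59 (limma adjusted p = 0.0727) and Aqp8 -1.31 (limma adjusted p = 0.0548).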

How the data were processed

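Total RNA from mouse proximal colon mucosa was profiled on Affymetrix arrays. The deposited values are log2 expression, made with RMA in Affymetrix Power Tools 1.16.1 according to tool names in the submitters' processing notes. RMA corrects background, normalises quantiles and gives no detection call. For the authors' build and annotation, a name is not given in the sources used here.

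The table held 72688 rows. GEO's platform annotation listed 32750, of which 31258 had 1 symbol after updating through RefSeq GRCm38.p6, which renamed 1118 genes, and 1492 had several and were not used. The remaining 39938 rows were unnamed here. For the 442 genes with several rows the highest-mean row was kept, which left 30701 genes. Arrays of the same group correlated at 0.9801 to 0.9915, and none duplicated another.

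One limma 3.58.1 fit in R 4.3.3 held 4 group means over 16 arrays, with empirical Bayes moderation and two-sided tests, and 5 comparisons were made. It was tested on simulated data. Arrays with the same replicate number deviated together between WT and KO lesions (r from 0.296 to 0.54) and, to a varying degree, in the WT response (0.097 to 0.348). They deviated in opposite directions in the KO response (-0.3 to -0.145) and between control groups (-0.336 to -0.243). The replicate block is printed beside the comparison of lesions, and its effect on calls of the 10 genes in the WT and KO responses is given below. The members and lists were chosen with earlier results of these data known. The text names all 10 genes, the 4 largest called rises and falls among the other transport genes in each response, and the 2 genes most alike in pattern to each; the marker, factor and other list genes named besides were chosen after their values were seen. Alternatives left out each array, added the replicate number or the number series, used only the groups compared, left out dim genes, centred arrays, changed the moderation, averaged rows or subtracted the epithelial marker mean.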

Additional observations from a re-analysis of the deposited data

Results flagged for a closer look

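Of 20 combinations of a gene and a group with 4 or 6 arrays, 3 held an array far from the rest of its group, where chance gives about 1 in 20. Scnn1b stood at 6.63 in WT control 3 and at 6.06 in KO lesion 2, above the others of their groups. Trpm6 stood at 8.95 in WT control 2, below the other WT controls but above all lesions.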

How the results depend on the processing

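No value of the 10 genes that passed changed sign under any alternative tried. The replicate block, which shares a number between arrays, left 2 genes called between KO and WT lesions against 94; it gave 5 of the 10 in the WT response and 7 in the KO response, where Aqp8 passed (-0.99, limma adjusted p = 0.0333). The same comparison of lesions had 58 genes with the number series as covariate, 2 within the lower series, 1 with only the groups compared, 29 with arrays centred on their medians and 15 relative to the epithelial markers. In the KO response 2511 genes and 3 of the 10 passed with the series as covariate, and 9743 genes passed relative to the epithelial markers. In the WT response 2982 genes and 3 of the 10 passed within the lower series. Leaving out 1 array at a time gave 3155 to 4460 genes in WT, 4469 to 7003 in KO, 0 to 2 between control groups, 4 to 1695 between lesions and 1 to 517 for the interaction. Of the 10 genes, 5 to 6 then passed in WT, 5 to 8 in KO, 0 between control groups, 0 to 3 between lesions and 0 for the interaction. The counts of 1695, 517 and 3 came without KO lesion 3. With 3 to 6 arrays a group and dim signal for Scnn1g, small changes could be missed. The causes of these moves were not tested.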
